A study of Mus musculus with 4 samples.

Results

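The cells described here are Tcf21-positive fibroblasts of the left and right ventricle of the fetal mouse heart. They were chosen by measured values: at least 500 genes detected, a muscle score under 1.5 (the mean of ln(1 + UMIs per 10000) of Tnnt2, Myh6, Ttn, Actn2 and Ryr2), at least 1 UMI of Tcf21, UMIs of 3 or more of Col1a1, Col3a1, Dcn, Lum and Pdgfra, and UMIs of fewer than 3 of the epicardial genes Upk3b, Upk1b, Msln, Muc16 and Krt19. A UMI, or unique molecular identifier, marks 1 captured mRNA molecule. The rule found 766 cells among the 21035 barcodes with at least 500 genes in all 4 libraries, with 246 cells from the left ventricle and 520 from the right. The study dissected conduction system regions from wild-type CD1 hearts at embryonic day 16.5 and made 1 10x Genomics library from each. Both ventricular libraries come from the region of the bundle branches and Purkinje fibers (BB/PF), and the remaining ones from the regions of the sinoatrial node (SAN) and of the atrioventricular node and His bundle (AVN/His). No embryo carried a transgene or received a treatment, and the sources used here give neither the number of embryos behind a library nor their sex. Left and right are therefore 1 library each, and no test between them was possible.

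Fibroblasts of the ventricular wall arise mostly from the epicardium, the cell layer that covers the heart. Cells of that layer lose their epithelial contacts, move into the muscle and take up either a fibroblast fate or that of mural cells, the pericytes and smooth muscle cells of vessel walls. Tcf21, a basic helix-loop-helix transcription factor, is needed in mice for the fibroblast fate, and Pdgfra, the alpha receptor for platelet-derived growth factor, marks the cells that follow it. Fetal cardiac fibroblasts divide, lay down collagen, proteoglycans and matricellular proteins between the myocytes, and release growth factors.

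Fibroblasts made up 4.82% of the kept barcodes on the left (exact binomial 95% interval 4.25% to 5.45%) and 11.9% on the right (11.0% to 12.9%). The left library held 4297 muscle cells and the right 2878, and both counts enter these shares. Among cells under the muscle limit alone, fibroblasts were 30.6% of 803 on the left and 35.2% of 1478 on the right. The same rule found 1204 cells in the SAN region and 988 in the AVN/His region. Depth was alike in both ventricles, with a median of 9010 UMIs per fibroblast on the left and 9330.5 on the right, and no fibroblast held fewer than 4251 UMIs. The left fibroblasts gave 2316240 UMIs in sum and the right ones 5125547, so intervals are narrower on the right. All intervals here cover counting error only. The left and right libraries shared 36 barcodes, none of which was a fibroblast in both.

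The genes of the rule are given first, as a description of the chosen cells. Tcf21 (chr10:22817281-22820174, minus strand of GRCm38) reached 408 CPM on the left (Poisson 95% interval 382 to 435) and 419.5 CPM on the right (402 to 438), where CPM are UMIs per 1000000 UMIs summed over the cells of a class. Because each 3′ UMI stands for 1 molecule, CPM were not divided by gene length. Col3a1 (chr1:45311538-45349706, plus strand) reached 1865 CPM on the left and 2465 CPM on the right. Pdgfra (chr5:75152292-75198215, plus strand) was at 123.5 and 129.4 CPM and had a UMI in 60.2% of left and 65.4% of right fibroblasts. Dcn, Lum and Col1a1, which encode decorin, lumican and a chain of collagen I, were at 2252, 439 and 1670 CPM on the left and at 2459, 449 and 2480 CPM on the right. Upk3b, Upk1b, Msln and Muc16 had no UMI in any fibroblast of either ventricle, and Krt19 had 1 UMI on each side. Muscle transcripts were not absent. Tnnt2 had a UMI in 55.3% of left and 58.65% of right fibroblasts, at 119.6 and 212.5 CPM. Its level was 8443 and 8964 CPM in muscle cells and 134.8 and 110.1 CPM in endothelial cells. Ttn was at 37.1 CPM on the left and 17.2 CPM on the right, and Actn2 at 14.25 and 10.3 CPM. Ryr2 was at 5.18 and 2.54 CPM, and Myh6 at 2.59 and 4.68 CPM.

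Tcf21 was close to absent from the other cell types of the same libraries, with 1 exception. A UMI of Tcf21 was found in 1.30% of 307 endothelial cells on the left and in 1.004% of 498 on the right, and in 0.698% and 0.938% of muscle cells. Median depths were 14041 and 12137.5 UMIs in endothelial cells and 8639 and 9543.5 UMIs in muscle cells. Cells under the muscle limit with 3 or more of the mural markers Rgs5, Notch3, Cspg4, Abcc9, Kcnj8 and Myh11 and fewer than 2 of the 5 matrix genes differed: 26 of 111 on the left (23.4%, 15.9% to 32.4%) and 52 of 218 on the right (23.9%, 18.4% to 30.1%) had a Tcf21 UMI. Their Tcf21 level was low, at 24.2 and 40.3 CPM. These shares lay above those of endothelial and muscle cells by more than the counting intervals. None of 18 left and 60 right macrophages had a Tcf21 UMI, counts that allow shares of cells with a UMI of up to 16.7% and 5%, taking 3 cells as the limit for a count of 0, and that say nothing of levels under detection.

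The limits of the rule fell unevenly on neighbouring cells. Among fibroblasts, 53 on the left and 102 on the right had a single Tcf21 UMI, and 60 and 74 cells had none while passing the rest of the rule. Cells with Tcf21 but only 0 or 1 of the 5 matrix genes numbered 28 on the left and 56 on the right and carried Rgs5, a pericyte gene, at 1139 and 1814 CPM, against 55.3 and 102 CPM in the fibroblasts. Just above the muscle limit, 21 left and 15 right cells met all other conditions.

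Some fibroblasts carried markers of other cells. UMIs of 2 or more of the 6 mural markers were present in 44 left and 143 right fibroblasts, of 2 or more of 6 endothelial markers in 8 and 38, and of 2 or more of 6 macrophage markers in 0 and 3. Myh11, the defining smooth muscle myosin, was at 0 UMIs in all of them. The summed level of the macrophage markers was 2.16 CPM on the left and 10.3 CPM on the right, against 9162 and 7294 CPM in the macrophages themselves. The summed endothelial markers were at 65.6 and 99.9 CPM, against 2280 and 2795 CPM in endothelial cells. Whether these are pairs of cells in 1 droplet or single cells with both programs was not tested.

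Outside the rule, 15 genes were most concentrated in the fibroblasts relative to all other kept barcodes of the same library. They were ranked by the lower of the left and right ratios among genes with at least 100 CPM on both sides. The ratios were not tested, since the rule chose the cells on the same counts. Aldh1a2 (chr9:71215789-71296243, plus strand), which makes retinoic acid, was at 115 CPM on the left and 133 CPM on the right, and its level in muscle cells was 0.749 and 0.820 CPM. Spon2 (spondin 2, a secreted matrix protein) reached 259 and 231 CPM. Dpt, which encodes dermatopontin, a small protein that binds collagen fibrils, was at 240 and 322 CPM, and Srpx at 121 and 115 CPM. Sox9, a transcription factor best known from cartilage and valve mesenchyme, was at 186 and 184 CPM with a UMI in 71.95% and 76.9% of cells. The valve and tendon genes listed with it did not accompany it: the 6 markers of valve mesenchyme summed to 193 and 186 CPM, of which Sox9 made up nearly all.

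The rest of the 15 were largely secreted or involved in secretion. Col1a2 was at 1869 and 2320 CPM and Col14a1, which associates with collagen fibrils, at 149 and 236 CPM. Postn (periostin), Ptn (the growth factor pleiotrophin) and Serpine2 (a protease inhibitor) were at 1906, 1951 and 276 CPM on the left and at 1965, 1714 and 385 CPM on the right. Sulf1 trims sulfate from heparan sulfate and Ptgis makes prostacyclin, and both lay between 119 and 152 CPM. The list also held Rcn3, a calcium-binding protein of the endoplasmic reticulum, Itm2a, a membrane protein at 1328 and 1649 CPM, and Gm12840, which the GENCODE annotation gives as a lincRNA. Cells with 3 or more of the matrix genes but no Tcf21 UMI and fewer than 3 markers of another type, 45 on the left and 40 on the right, carried these genes at similar levels, for example Postn at 2348 and 1697 CPM and Aldh1a2 at 116 and 91.6 CPM. They reached or passed the fibroblasts in 6 of the 15 genes on the left and 3 on the right. Among mural, endothelial, macrophage and muscle cells, mural cells had the highest level of 12 of the 15 genes on both sides, for example with Postn at 349 CPM on the left and 397 CPM on the right. Endothelial and macrophage cells were limited to fewer than 3 of the matrix genes, and mural cells were not. That ranking therefore depends in part on how the classes were drawn. The cells that passed the rule in the SAN and AVN/His regions carried these genes too. Dpt and Ptn were higher there than in both ventricles, at 846 and 3554 CPM in the SAN and 557.5 and 3556 CPM in the AVN/His region. Aldh1a2 and Srpx were lower, at 24.3 and 69.6 CPM and at 60.1 and 102.9 CPM.

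**Figure D1:**
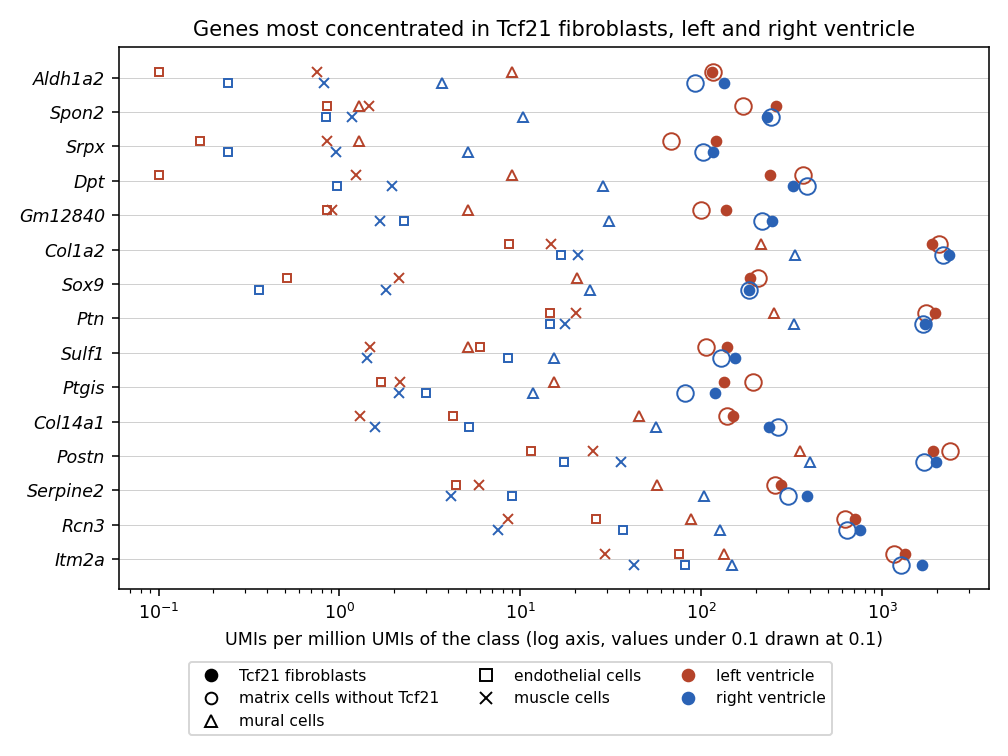
Summed UMIs per 1000000 (log axis, values under 0.1 drawn at 0.1) of the 15 genes most concentrated in Tcf21 fibroblasts, for fibroblasts (filled circles), cells with the matrix genes but no Tcf21 UMI (open circles), mural cells (triangles), endothelial cells (squares) and muscle cells (crosses) of the left (red) and right (blue) ventricle, with 1 library per side. Fibroblasts lie at 115 CPM or more, near the cells without a Tcf21 UMI and to the right of mural, endothelial and muscle cells, while Aldh1a2 is under 1 CPM in muscle cells.

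The promoters of Tcf21 and Dpt are shown because the cells were selected on Tcf21 and because the Dpt promoter alone, among the 9 of these 15 genes with a promoter sequence at hand, held the E-box letters CAGCTG, a sequence that basic helix-loop-helix factors bind and that reads the same on both strands. Each run covers 250 bases before to 50 bases after the annotated start (RefSeq, GRCm38.p6), read 5′ to 3′ on the gene's own strand, with CAGCTG in capitals.
Tcf21 (chr10:22820094-22820393, minus strand): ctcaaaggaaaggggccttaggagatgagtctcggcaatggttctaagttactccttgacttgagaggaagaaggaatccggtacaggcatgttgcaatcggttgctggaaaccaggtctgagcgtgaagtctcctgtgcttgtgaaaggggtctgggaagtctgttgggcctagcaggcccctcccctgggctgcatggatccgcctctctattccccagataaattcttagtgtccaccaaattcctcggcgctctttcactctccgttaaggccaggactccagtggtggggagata
Dpt (chr1:164796413-164796712, plus strand): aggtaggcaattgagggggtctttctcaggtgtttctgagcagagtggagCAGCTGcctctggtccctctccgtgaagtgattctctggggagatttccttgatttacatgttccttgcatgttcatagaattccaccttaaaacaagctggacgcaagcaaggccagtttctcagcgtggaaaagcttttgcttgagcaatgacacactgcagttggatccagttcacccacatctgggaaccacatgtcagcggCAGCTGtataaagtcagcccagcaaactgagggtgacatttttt
The Dpt promoter held CAGCTG at 2 positions and the Tcf21 promoter at none. Of the 9 promoters 1 held the letters, and of all 32851 promoters of the same length 16.3% did. A match is a description of the letters and not a binding site.

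Transcription factors of the cardiac fibroblast lineage formed a broad set. Of the 28 listed, 21 had a UMI in at least 10% of cells on both sides. Egr1, an immediate early gene, was at 337 CPM on the left and 590 CPM on the right. Tbx20, a T-box factor active in heart muscle, was at 374 CPM on the left and 389 CPM on the right, against 187 and 216 CPM in muscle cells. Tbx18, which marks epicardium and the cells derived from it, was at 116 CPM on the left (102 to 130) and 81.4 CPM on the right (73.7 to 89.5). Zeb2, a repressor of epithelial genes, was at 188 and 178 CPM. Of the 28, 2 had no UMI on either side.

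Fibrillar collagens were among the strongest transcripts, and 7 of 11 listed genes reached 10% of cells on both sides. Col5a1 and Col5a2, whose products set the width of collagen I fibrils, were at 329 and 226 CPM on the left and at 461 and 239 CPM on the right. All 5 fibrillar collagens above 50 CPM were lower on the left than on the right, with a median ratio of 0.757. The median over all 2843 genes at 50 CPM or more was 1.06. Col1a1 and Col3a1 among the 5 are genes of the rule that chose the cells, and 0.757 is the ratio of Col3a1 itself. None of the 5 reached a 2-fold difference, and the intervals of Col5a2 overlapped. Of the 16 other collagens, 10 reached 10% of cells on both sides, and the 8 at 50 CPM or more had a median ratio of 0.721. Col4a1, a basement membrane collagen that endothelial cells carried at 701 and 1018 CPM, was at 354 and 488 CPM. Col6a1 and Col6a2, chains of the beaded filament collagen VI, showed the same order, at 365 and 274 CPM on the left and 480 and 423 CPM on the right. The enzymes and chaperones that fold and crosslink collagen did not: 19 of 21 were found in at least 10% of cells on both sides, the 13 at 50 CPM or more had a median ratio of left to right of 1.015, and Serpinh1, the collagen chaperone, was at 1528 CPM on the left and 1567 CPM on the right.

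Noncollagenous matrix genes were led by Sparc at 5081 CPM on the left and 4874 CPM on the right, with Fn1 (fibronectin) at 550 and 524 CPM. Small leucine-rich proteoglycans beside Dcn and Lum were Bgn (biglycan) at 537 and 528 CPM, Aspn (asporin) at 240 and 284 CPM and Ogn (osteoglycin) at 219 and 180 CPM. Of the elastic fiber and fibulin genes, 12 of 16 reached 10% of cells on both sides. Mfap2 and Fbn1, components of microfibrils, were at 402 and 223 CPM on the left and at 466 and 217 CPM on the right. Emilin1, a glycoprotein of elastic fibers, was at 272 and 263 CPM. Elastin itself (Eln) was at 113.5 CPM on the left and 82.1 CPM on the right. Of the matrix proteases and their inhibitors, 18 of 23 reached 10% of cells on both sides. Timp2 and Timp3, inhibitors of metalloproteinases, were at 360 and 198 CPM on the left and at 306 and 195 CPM on the right, and the metalloproteinase gene Mmp2 was at 237 and 234.5 CPM. Of 13 other proteoglycan and hyaluronan genes, 7 reached 10% on both sides, led by Vcan (versican) at 155 and 161 CPM and by Gpc6, a glypican, at 145.5 and 148 CPM.

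Of 33 growth factor ligands, 12 reached 10% of cells on both sides, and Ptn, Igf2, Dlk1 and Mdk had the highest levels. Igf2 and Mdk (midkine) were at 1610 and 1008 CPM on the left and at 1564 and 1010 CPM on the right. Igf2 was as high in endothelial cells, at 1768 and 2034 CPM, whereas Mdk was at 36.04 and 60.8 CPM there. Of 26 receptors, 16 did, with Itgb1 (integrin beta 1) at 356 and 343 CPM, Igf2r, which clears Igf2, at 122 and 157 CPM and Axl, a receptor tyrosine kinase, at 100.2 and 131 CPM. Igfbp7 and Igfbp4, insulin-like growth factor binding proteins, were at 775 and 302 CPM on the left and at 749 and 359 CPM on the right, and 4 of 6 such genes reached 10% of cells on both sides. Of 27 Wnt pathway genes, only 7 reached 10% of cells on both sides, led by Frzb, a secreted Wnt antagonist, at 112 and 73.2 CPM. Of the imprinted growth genes, 14 of 17 did, with H19 at 2644 and 2765 CPM and Cdkn1c, an inhibitor of the cell cycle, at 762 and 699 CPM. Of 15 myofibroblast and contractile genes, 11 reached 10% of cells on both sides, with Vim (vimentin) at 4551 and 3920 CPM and Acta2 at 369 and 364 CPM. Of 28 genes of axon guidance and innervation, 10 reached 10% of cells on both sides, led by Nrp1 (a semaphorin and VEGF receptor) at 62.6 and 104 CPM. Of 23 chemokine, complement and immune genes, 6 did, led by Cxcl1 at 308 and 477 CPM and Cd34 at 151 and 175 CPM.

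How much the cells differed among themselves was measured per gene as an index, the variance of the counts over that expected of Poisson counts at each cell's depth, which is 1 for counting noise alone. For the same relative spread between cells, the index is larger for a gene with a higher level, so its ranking favors abundant genes. Over the 1305 genes with at least 100 CPM on both sides left fibroblasts had a median index of 1.25 and right ones of 1.29. The 12 genes with the highest index on both sides fell into several kinds. Hbb-bs, Hba-a1 and Hbb-bt encode hemoglobin chains of red blood cells. Hbb-bs had a UMI in 98.0% of left and 96.35% of right fibroblasts, yet the 25 highest of the 246 left cells held 83.1% of its UMIs and the 52 highest of the 520 right cells 91.6%. The mitochondrial transcripts, mt-Atp6, mt-Co3 and mt-Nd1, had indices of 18.7, 14.7 and 12.1 on the left and of 105, 108 and 58.3 on the right, where 9 fibroblasts had over 20% mitochondrial UMIs and none on the left did. Actb and Malat1 made up another pair, with an index of 40.4 and 37.5 on the left and 45.1 and 40.2 on the right. Both are abundant, with Actb at 3989 and 3601 CPM and Malat1 at 7931 and 9040 CPM.

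The remaining 4 of the 12 were Apoe, Mgp, Dlk1 and Dcn. Apoe, a lipid carrier, had UMIs in 40.2% of left and 39.0% of right fibroblasts, and the same numbers of cells held 74.9% and 74.3% of them. Its level was 392 CPM on the left and 255 CPM on the right, and 10381 and 8500 CPM in macrophages. Mgp (matrix Gla protein, an inhibitor of calcification) was similarly uneven, with UMIs in 39.0% and 42.9% of cells and 73.0% and 72.4% of them in as few cells. Dlk1, an imprinted Notch-like ligand, was found in 61.0% of left and 82.1% of right fibroblasts, at 795 and 1223 CPM, and was at 1321 and 1154 CPM in mural cells. Dcn was in nearly all cells, but its level ran from 3.52 UMIs per 10000 at the 10th percentile to 46.4 at the 90th on the left.

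**Figure D2:**
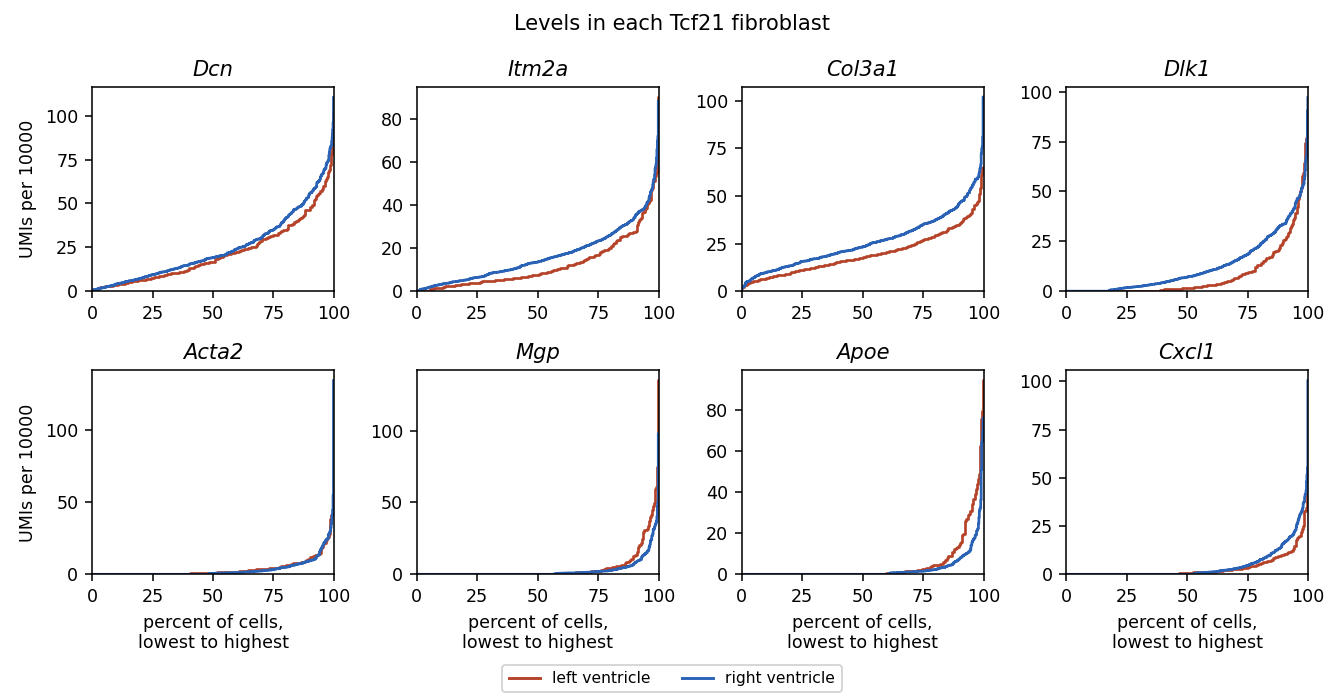
UMIs per 10000 of 8 genes in each fibroblast, with the cells of the left (red, 246 cells) and right (blue, 520 cells) ventricle each ordered from lowest to highest along the x axis (percent of cells). Dcn, Itm2a and Col3a1 climb across the whole range, whereas Mgp and Apoe stay at 0 in most cells and climb only among the highest cells.

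Across cells, some of the uneven genes varied together on both sides. These correlations are descriptions over 246 left and 520 right cells that share a library, and 25 of 406 pairs among 29 uneven or rule genes exceeded 0.3 in size with the same sign on both sides, while 114 pairs had opposite signs. Dcn went with Itm2a (Spearman's rho 0.59 on the left and 0.74 on the right), with Sparc (0.66 and 0.61) and with Lum (0.58 and 0.63). Col3a1 went with Col1a1 (0.58 and 0.68), with Meg3 (0.58 and 0.55) and with Dlk1 (0.49 and 0.45). Dlk1 also went with Itm2a (0.50 and 0.59), so these genes did not form separate sets, and Dcn with Col1a1 reached 0.21 on the left and 0.55 on the right. Dcn and Col3a1 had opposite signs, at -0.07 and 0.27. Acta2, the smooth muscle actin, went against Col1a1 (-0.31 and -0.46). After cells with markers of another type were left out, that last value was -0.34 and -0.35. Cyr61 and Cxcl1, each induced by injury or stress signals in many cells, went with the immediate early gene Fos (0.44 and 0.45 for Cyr61, 0.48 and 0.44 for Cxcl1).

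Among the cells that passed the rule, the mural markers moved with Acta2 and against Dcn. In the fibroblasts with 2 or more of them, Acta2 was at 617 CPM on the left and 693 CPM on the right, against 311 and 233 CPM in the other fibroblasts. Pdgfrb, the receptor that mural cells carry, was at 98.6 and 186 CPM, against 28.7 and 29.5 CPM. Dcn was at 1513 and 1518 CPM, against 2424 and 2835 CPM. Col1a1 was lower in the marked cells on the right, at 1628 CPM (1563 to 1695) against 2820 CPM (2766 to 2875), while its intervals overlapped on the left, at 1701 CPM (1581 to 1828) against 1662 CPM (1604 to 1721). Postn was not lower in the marked cells, at 1965 and 2122 CPM against 1892 and 1902 CPM. The cells were split on the mural markers, so the levels of those markers themselves are no result. Dcn and Col1a1 are genes of the rule, which left out cells with Tcf21 and Rgs5 but few of the matrix genes. The Dcn and Col1a1 levels of the marked cells therefore depend on where the rule cut. They describe the chosen cells only and were not tested.

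Many fibroblasts carried transcripts of the G2 and M phases of the cell cycle. All 27 listed G2 and M phase genes were found in at least 10% of cells on both sides, and 94 of 246 left fibroblasts (38.2%, 32.1% to 44.6%) and 163 of 520 right ones (31.3%, 27.4% to 35.5%) had UMIs of 5 or more of them. Cells with 5 or more were deeper, at medians of 10367 and 11467 UMIs, so each cell was also thinned to 2000 UMIs. At that depth 37.8% of left (31.7% to 44.2%) and 32.9% of right fibroblasts (28.9% to 37.1%) had UMIs of 2 or more of the genes, so the sides did not differ beyond counting error. These shares count transcripts and are no rate of division. Top2a, Ube2c and Birc5, which act in chromosome separation, were at 174, 281 and 242 CPM on the left and 144, 179 and 191 CPM on the right. The median left to right ratio of the 16 such genes at 50 CPM or more was 1.47, against 1.06 over all genes, and none of them was 2-fold apart. Muscle cells of the same libraries showed the same order, with 33.5% on the left and 27.4% on the right after thinning, and so did endothelial cells, with 49.8% and 32.3%, while the few macrophages had 27.8% and 31.7%. Of 24 S phase genes, 22 reached 10% of fibroblasts on both sides, and the 7 at 50 CPM or more had a median ratio of 1.008. After thinning, the G2/M shares were 24.8% in SAN and 24.7% in AVN/His fibroblasts. Other cells of the SAN library had 24.6% (endothelial), 22.3% (muscle), 19.6% (macrophages) and 30.8% (mural). Those of the AVN/His library had 33.7%, 29.4%, 32.3% and 36.6% in the same order.

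**Figure D3:**
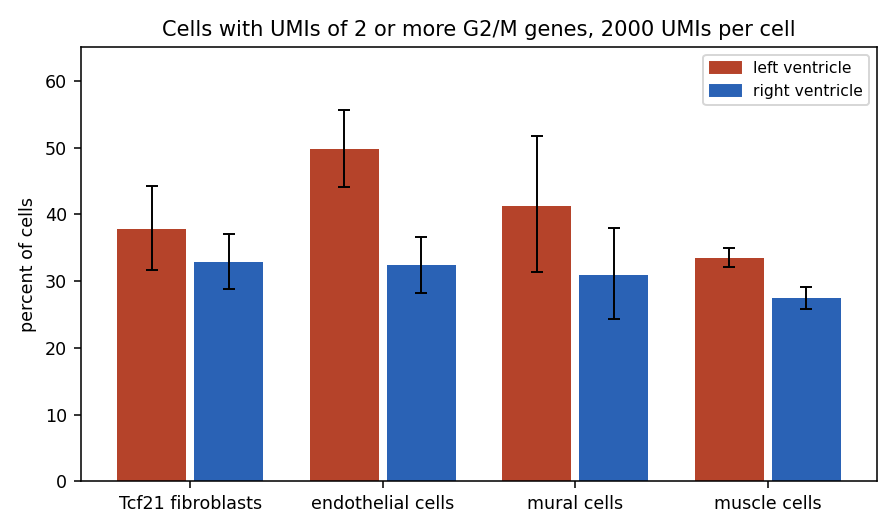
Percent of cells with UMIs of 2 or more of 27 G2/M genes after each cell was thinned to 2000 UMIs, for 4 classes of cells in the left (red) and right (blue) ventricle, with exact binomial 95% intervals as error bars and 1 library per side. The bars of the fibroblasts stand at 37.8% and 32.9%, and the left bar is the higher one in these 4 classes, with overlapping intervals for fibroblasts and mural cells.

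Of the genes of the rule, Lum and Dcn set the cells rich in G2/M transcripts apart from the others on both sides. Between cells with UMIs of 5 or more G2/M genes and cells with fewer than 3, Tcf21 was at 391 against 417 CPM on the left and at 403 against 424 CPM on the right, with overlapping intervals. Postn was at 1761 CPM (1682 to 1843) against 1974 CPM (1889 to 2061) on the left. On the right its intervals overlapped, at 1922 CPM (1861 to 1985) against 2005 CPM (1953 to 2058). Col1a1, Col3a1, Itm2a and Meg3 were lower by more than the intervals on the right only. There Col1a1 was at 2263 against 2682 CPM, Col3a1 at 2364 against 2552, Itm2a at 1366 against 1836 and Meg3 at 1745 against 2356 CPM. Lum was lower in the G2/M-rich cells by more than the intervals on both sides, at 382 CPM (345 to 421) against 494 CPM (452 to 539) on the left and at 322 CPM (297 to 348) against 541 CPM (514 to 569) on the right. Dcn had the same order, at 2055 CPM (1969 to 2143) against 2425 CPM (2331 to 2521) and at 2051 CPM (1988 to 2116) against 2742 CPM (2681 to 2804). Both genes helped to choose the cells, and the cells of a side share a library, so these values are a description and were not tested.

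Few genes differed by 2-fold between left and right fibroblasts. Of the 2843 genes with at least 50 CPM on the higher side, the median ratio of left to right was 1.056, 7 (0.246%) were at least 2-fold higher on the left and 11 (0.387%) at least 2-fold higher on the right. Smaller differences were common: the counting interval of the ratio lay above 1 for 710 genes and below 1 for 283. With 1 library per side, these are differences between libraries, and the ventricle, the embryos and the preparation cannot be told apart.

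The highest ratio was that of Sfrp2 (chr3:83766321-83774316, plus strand), a secreted modulator of Wnt signaling, at 64.3 CPM on the left and 8.19 CPM on the right (ratio 7.85, 5.54 to 11.3). The ratio was 13.9 as a mean over cells and 15.9 without cells that had 3 or more G2/M genes. It rested on few cells: 13 of 246 left fibroblasts held 138 of its 149 UMIs, and 5 of 520 right fibroblasts had 3 or more. The 13 left cells, picked after their values were seen, also carried Mfap4 at 2088 CPM against 78.4 CPM in the other left fibroblasts, Eln at 1122 against 81.9 CPM, and Prss35 at 497 against 7.57 CPM. Aldh1a2 and Sct had no UMI in those 13 cells, while 125 and 115 of the other 233 had one. A count of 0 in 13 cells allows up to 3 cells with a UMI and does not bound the cells that express a gene. The 5 right cells matched this only in part. Eln was at 485 against 76.6 CPM and Prss35 at 28.5 against 2.18 CPM, but Mfap4 at 243 against 174 CPM. Aldh1a2 and Sct had a UMI in 3 and 2 of these 5 cells, and the muscle gene Tnnt2 was at 2069 against 187 CPM. Among fibroblasts with fewer than 3 Sfrp2 UMIs, Sfrp2 was at 4.90 CPM on the left and 4.75 CPM on the right. That limit itself caps both levels, so their closeness is no result. In the SAN and AVN/His regions, 39.0% and 33.9% of the cells that passed the rule had 3 or more Sfrp2 UMIs.

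Tgfbi, a matrix protein induced by TGF-β, was at 130 CPM on the left and 48.0 CPM on the right (ratio 2.72), with a UMI in 38.6% and 20.96% of cells. Its ratio was 1.715, short of 2-fold, without cells that had 3 or more G2/M genes. Sct, which encodes the peptide hormone secretin, was at 196 and 90.1 CPM (2.17). Neither was raised on the left in endothelial cells, where the Tgfbi ratio was 0.388 and Sct had 1 and 3 UMIs. Cdc42ep3, which binds the small GTPase Cdc42, was at 79.9 and 34.0 CPM (2.35). Outside the cells with 3 or more Sfrp2 UMIs it was at 57.9 CPM on the left and 33.6 CPM on the right, which is under 2-fold. Akr1b3, aldose reductase, was at 111 and 52.9 CPM (2.10). Its ratio was 1.187 in muscle, 1.545 in endothelial and 1.124 in mural cells, and muscle cells carried it at 99.9 and 84.2 CPM. The other pair, Hist1h2ap and Xist, differed by more than 2-fold in other cells as well. The histone gene Hist1h2ap had a ratio of 3.88 in fibroblasts, 4.74 in muscle cells and 5.71 in endothelial cells. Xist, the RNA that silences an X chromosome in female cells, had 2.52, 6.22 and 2.97. Hist1h2ap belongs to a family of near-identical histone genes among which reads can be split.

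Genes higher on the right included Smoc2, a matricellular protein, at 23.3 CPM on the left and 54.4 CPM on the right (ratio 0.428, 0.314 to 0.575), with a UMI in 11.8% and 27.7% of cells, and at a ratio of 0.509 when at least 2 Tcf21 UMIs were required. Igfbp5, an insulin-like growth factor binding protein, was at 59.2 and 160 CPM (0.370), and it was lower on the left in endothelial cells (0.319) and mural cells (0.408) as well. Jun and Hspa1a, an immediate early gene and a heat shock gene, were at 173 and 92.4 CPM on the left and 401 and 231 CPM on the right. Their ratios were 0.910 and 0.951 in muscle cells, where Hspa1a was at only 3.695 and 3.884 CPM. They were 0.729 and 0.890 in endothelial cells and 0.805 and 0.664 in mural cells. The ratio of Hspa1a in fibroblasts was 0.634 without cells that had 3 or more G2/M genes. H2-D1, a class I histocompatibility gene, was at 22.45 and 52.7 CPM (0.426). It was lower on the left in muscle (0.498), endothelial (0.689) and mural cells (0.687) as well.

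Several of the right-hand genes moved with markers of other cells. Kcnj8, a potassium channel gene of pericytes, was at 22.0 CPM on the left and 53.85 CPM on the right, and Cpa1, high in mural cells at 781 and 413 CPM, at 17.3 and 52.7 CPM. The 6 mural markers summed to 148 CPM on the left and 264 CPM on the right, with 5 of the 6 above 0. After cells with UMIs of 2 or more endothelial, macrophage or mural markers, or over 1% hemoglobin, were left out, the ratio was 0.728 for Kcnj8 and 0.600 for Cpa1, both short of 2-fold. Kcnj8 is itself 1 of the 6 mural markers, so its shift follows in part from the removal. Where 3 markers were asked for, a limit chosen after seeing the data, the ratio was 0.474 for Kcnj8, still past 2-fold, and 0.539 for Cpa1. The hemoglobin genes Hba-a1 and Hba-a2, near-identical copies, were at 1551 and 73.4 CPM on the left and 3670 and 194 CPM on the right, and Hbb-bt at 544 and 1101 CPM. Hemoglobin UMIs were over 1% in 5 left and 12 right fibroblasts, and without the marked cells the ratio was 0.848 for Hba-a1, 0.758 for Hba-a2 and 1.065 for Hbb-bt. Since those cells were removed on hemoglobin, the shift follows in part from the choice of cells. Gm8730 is annotated as a processed pseudogene, so its reads may come from a gene it resembles, and it was lower on the left in every class examined (0.433 in endothelial cells).

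**Figure D4:**
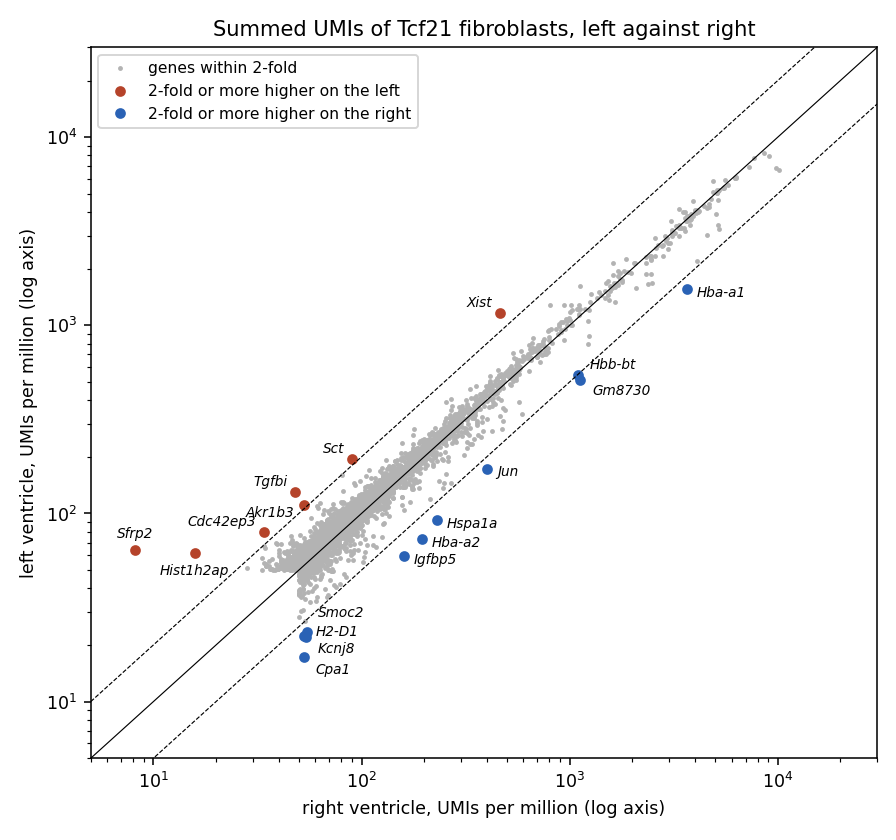
Summed UMIs per 1000000 in fibroblasts of the left ventricle (y axis) against the right (x axis), both log axes, for 2843 genes with at least 50 CPM on the higher side. The solid line marks equal levels and the dashed lines 2-fold differences; 7 genes lie above the upper dashed line and 11 below the lower one, with Sfrp2 farthest from the diagonal.

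Ventricular fibroblasts were then set against the cells that passed the same rule in the SAN and AVN/His regions, which is the comparison that 2 libraries a side allow to be tested. Each side joins 2 regions, so the spread includes regional differences, and nothing in the labels says that libraries came from separate embryos, so the p-values rest on differences among 4 libraries that may be technical. By the quasi-likelihood F test of edgeR, adjusted by Benjamini-Hochberg over all tested genes, 8 of 11813 genes (0.0677%) were lower in the ventricles and 0 (0.0%) were higher at an adjusted p of 0.05. At an unadjusted p under 0.05, 986 genes were lower and 815 higher, and the DESeq2 Wald test called 169 lower and 80 higher. All 8 calls sat just under the threshold, with adjusted p between 0.04885 and 0.04981 in edgeR. They were lost when either ventricular library was left out, and none was called when cells with markers of other types were left out. Without the SAN or the AVN/His library, 556 and 1109 genes were called. The 8 genes kept their direction throughout, and without cells bearing other-type markers the log2 fold change was -2.50 for Eln, -1.36 for Bgn and -3.39 for Pdgfrl.

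The gene with the lowest p encodes elastin. Eln (chr5:134702593-134747323, minus strand) was at 113.5 CPM in left and 82.1 CPM in right ventricular fibroblasts, against 627 CPM in the SAN and 759 CPM in the AVN/His region (log2 fold change -2.74 ± 0.18 SE, adjusted p = 0.04885, edgeR). The ventricular values did not overlap the nodal ones, nor did those of the other 7 genes, but in CPM 34.6% of all tested genes had both ventricular values below both nodal ones and 14.1% both above. Mfap4, whose product binds elastic microfibrils, was at 140 and 175 CPM, against 1397 and 939 CPM (-2.79 ± 0.24). Bgn was at 537 and 528 CPM, against 1255 and 1274 CPM (-1.15 ± 0.09), the smallest change of the 8. Pdgfrl, a receptor-like relative of Pdgfrb, was at 12.5 and 8.585 CPM, against 114 and 84.2 CPM. Angptl7, a secreted angiopoietin-like protein, was at 1.73 and 0.195 CPM from 4 and 1 UMIs, against 33.5 and 32.4 CPM. In muscle cells of the same libraries Eln was at 1.37 and 1.03 CPM in the ventricles, against 64.7 and 62.7 CPM. Mfap4 was at 2.15 and 1.28 CPM in muscle cells, against 31.4 and 30.2 CPM, and Bgn at 5.58 and 6.77 CPM, against 41.3 and 37.4 CPM. Endothelial cells had the same order. There Eln was at 14.3 and 110.5 CPM in the ventricles, against 902 CPM in the SAN and 176 CPM in the AVN/His region. It was above the fibroblasts in the right ventricle and in the SAN region. Bgn was at 34.7 and 77.5 CPM in endothelial cells, against 445 and 101 CPM, and Mfap4 at 0.17 and 0.361 CPM, against 8.60 and 12.7 CPM. Whether these shifts belong to the fibroblasts or to whole libraries was not tested.

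The remaining calls were at low levels. Rasl11b, a Ras-like small GTPase, was at 16.4 and 17.8 CPM, against 64.0 and 79.0 CPM, and Tmem178 was at 0.432 and 0.780 CPM from 1 and 4 UMIs, against 12.05 and 12.5 CPM. Sfrp1, a secreted Wnt antagonist like Sfrp2, was at 40.6 and 49.6 CPM, against 178 and 202 CPM (log2 fold change -1.96 ± 0.15). It lies outside the rule for named genes, because muscle cells of the SAN region carried more of it (244 CPM) than the fibroblasts there. Markers of other cells differed as well: the 6 macrophage markers summed to 2.16 and 10.3 CPM in ventricular fibroblasts, against 52.25 and 34.3 CPM, the 6 endothelial ones to 65.6 and 99.9 CPM, against 114 and 122.5 CPM, and the 6 mural ones to 148 and 264 CPM, against 318 and 177 CPM. Their part in the calls was not tested.

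**Figure D5:**
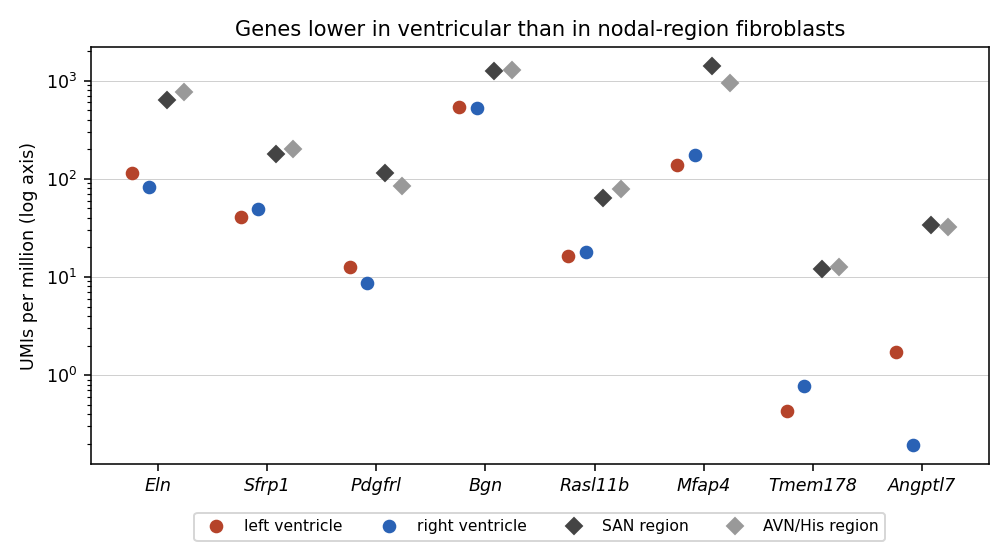
UMIs per 1000000 (log axis) of the 8 genes called lower in ventricular fibroblasts, 1 point per library: left ventricle (red circles), right ventricle (blue circles), SAN region (dark diamonds) and AVN/His region (light diamonds). For these 8 genes both ventricular points lie below both nodal ones, as they do for 34.6% of all tested genes, and for Eln they stand at 113.5 and 82.1 CPM against 627 and 759 CPM.

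Of the 8 calls, 4 were members of the gene lists, and 17 of the 20 lists had a median log2 fold change below 0. Among the 16 tested elastic fiber and fibulin genes 2 were called lower (Eln and Mfap4), against 0.0677% of all genes tested, and 0 higher. The median log2 fold change of the 16 was -1.17, against -0.01 over all genes tested. The 8 tested small leucine-rich proteoglycans, Dcn and Lum of the rule among them, included 1 called gene (Bgn) and had a median of -0.80. The 18 tested Wnt pathway genes included 1 called gene (Sfrp1) and had a median of -0.63. The 6 IGF binding proteins had a median of -0.98 and the 20 matricellular genes one of -0.70, both without a call. The 9 fibrillar collagens, Col1a1 and Col3a1 of the rule among them, had a median of -0.42 with no call. Col1a1 was at 1670 and 2480 CPM in the ventricles, against 4264 CPM in the SAN and 2820 CPM in the AVN/His region. The 27 G2/M genes had a median of 0.28 and no call, and the 14 myofibroblast and contractile genes a median of -0.70 and no call. The 25 lineage transcription factors had a median of -0.08 and no call.

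Higher values in the ventricles did not pass the test. Glipr2 was at 465 and 402 CPM, against 201 and 247 CPM (log2 fold change 1.05, adjusted p = 0.0839, edgeR). Aldh1a2 was at 115 and 133 CPM, against 24.3 and 60.1 CPM. Col15a1, a collagen of basement membrane zones, was at 270 and 311 CPM, against 30.4 CPM in the SAN and 147 CPM in the AVN/His region, and Sct at 196 and 90.1 CPM, against 30.9 and 36.5 CPM. These genes were picked after their values were seen.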

How the data were processed

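Single cells of microdissected regions of CD1 hearts were sequenced with the 10x Genomics 3′ protocol, 1 library per region. The authors made the deposited counts, which are UMIs per gene and cell without normalization, with Cell Ranger against mm10, as the submitters' processing notes say; its version, its annotation release and any earlier doublet removal are not given in the sources used here. The members and gene lists were chosen with earlier results of these data known.

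Barcodes with at least 500 genes were kept, and of 65 repeated gene symbols the first entry was used. UMIs were summed per library and class and expressed as CPM with exact Poisson intervals, and shares of cells carry exact Clopper-Pearson intervals (95%, counting error only). Left and right were compared by ratio alone: a gene counted as apart at 2-fold or more with at least 50 CPM on the higher side. For comparison, muscle cells had a score of 1.5 or more, and endothelial, macrophage and mural cells at least 3 of their 6 markers, without being members; endothelial and macrophage cells had fewer than 3 matrix genes, and mural cells no Tcf21 UMI and fewer than 3 epicardial, endothelial or macrophage markers, except where their Tcf21 shares are given. No doublet caller was run; cells with UMIs of 2 or more markers of another type, or over 1% hemoglobin UMIs, were left out in an alternative.

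Sums of ventricular against SAN and AVN/His cells were tested with edgeR 4.0.16 (TMM factors, filterByExpr, glmQLFit, glmQLFTest, limma 3.58.1, R 4.3.3), adjusted over all tested genes at 0.05; DESeq2 1.42.0 was an alternative. The test was checked on counts simulated for the 11813 tested genes, 200 of them changed. It recovered 32.7% of the 98 genes changed 2-fold that were tested and 83.5% of the 97 changed 4-fold. Of its calls 11.7% were false, more than the adjusted p of 0.05 allows. A gene without a call is therefore not shown to be equal. Named were every gene of the rule and the 4 highest genes of each list with any its background turns on. The 15 genes highest over all other barcodes, the 12 with the highest variance index and the 10 highest ratios to each side followed. Also named were the 10 called genes with the lowest p in each direction whose level was above that of muscle cells. Genes outside these were chosen after their values were seen. One listed gene that this rule would name is not reported here. Coordinates are from GENCODE vM21 (GRCm38, which mm10 denotes). Sums, intervals and plots were made in Python 3.11.15 with scipy 1.17.1, numpy 2.4.6, matplotlib 3.10.9 and pandas 2.3.3. The study's imaging was not analysed here.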

Additional observations from a re-analysis of the deposited data

How the results depend on the processing

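The rule found 611 cells with at least 2 Tcf21 UMIs, 687 with 4 of the 5 matrix genes, 758 at a muscle score under 1.0 and 766 at a minimum of 1000 genes. The 18 genes apart between left and right became 42 at a minimum of 20 CPM and 11 at 100 CPM, 245 in the 60 left and 74 right cells without Tcf21 UMIs, of which 9 were among the 18, and, in an alternative chosen after seeing the data, 31 without cells that had 3 or more G2/M genes. The other 8 alternatives gave 17 to 24. Hbb-bt turned its direction without cells bearing other-type markers (ratio 1.065, and 1.001 when 3 markers were asked for, chosen after seeing the data).

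The 8 genes apart between ventricles and nodal regions became 5 with DESeq2 size factors, 249 with the DESeq2 Wald test, 678 without a filter on low counts, 0 without other-type cells, 0 at a muscle score under 1.0 and 21 with equal cell numbers. Alternatives chosen after seeing the data gave 4 without cells bearing 3 other-type markers, 0 at a mitochondrial share under 10% and 11 without cells with 3 or more G2/M genes. Leaving out 1 library in turn gave 0 to 1109 genes: 0 without the left, 0 without the right, 556 without the SAN and 1109 without the AVN/His library, where a lone library is taken to vary like the others. All 8 genes kept their direction in all 13 alternatives, with adjusted p up to 0.480. The cause of these shifts was not tested.

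Of 400 listed genes, 245 had a UMI in at least 10% of cells on both sides, 242 without other-type cells, 248 with at least 2 Tcf21 UMIs and 126 after thinning to 2000 UMIs, which lowers every share. No paired analysis was possible because each region gave 1 library and the labels give no replicate numbers. Depth limits genes under about 3 UMIs per library.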

Other observations

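The fibroblasts of the left and right ventricle also differed in transcripts of the sex chromosomes. Xist had a UMI in 87.8% of left and 34.0% of right fibroblasts, while the Y-linked genes Ddx3y and Eif2s3y were at 9.07 and 6.48 CPM on the left and at 47.8 and 28.7 CPM on the right. Both kinds of transcript were present on both sides. The number and sex of the embryos are not given in the sources used here, so the sex of the cells and the ventricle cannot be told apart for any gene that differed between left and right.

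Immediate early and chemokine transcripts were present in both ventricles and unequal among regions. Egr1 was at 337 CPM in left and 590 CPM in right ventricular fibroblasts, against 1163 CPM in the SAN and 289 CPM in the AVN/His region. Cyr61 was at 233 and 338 CPM, against 1611 and 427 CPM, and Cxcl1 at 308 and 477 CPM, against 790 and 139 CPM. Fos was at 732 and 587 CPM, against 1987 and 667 CPM. In these genes the SAN region stood above the other libraries, and their part in the regional differences was not tested.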
